A study of Rattus norvegicus with 38 samples.

Results

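Liver miRNAs of rats fed 2-acetylaminofluorene were compared with those of rats fed 5 other chemicals, as the equally weighted mean of their 5 group means and also one chemical at a time. The comparison used 24 of the 38 arrays of the study, chosen by the treatment in each array's title, and every array came from a separate male Fischer F344 rat that was 8 weeks old on arrival and spent 90 days on its diet. The groups were 2-acetylaminofluorene at 40 ppm (5 rats), Phenobarbital at 1000 ppm (3 rats), Diethylhexylphthalate at 12000 ppm (4 rats), Monuron at 1500 ppm (4 rats), Chlorendic Acid at 1250 ppm (4 rats) and Methapyrilene HCl at 250 ppm (4 rats). Rats on control diet (5 rats) served as background. Doses were a carcinogenic or a maximum tolerated dose per the labels, so neither the dose nor its toxicity was matched between chemicals, and differences between diets cannot be told apart from differences in dose. Rats were housed 5 to a cage, and the cage of each rat is not given in the labels.

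As general background, 2-acetylaminofluorene is an aromatic amide that liver enzymes turn into a reactive form, which binds DNA and forms adducts. The other 5 chemicals are commonly described as liver carcinogens of rodents that do not act by binding DNA. Phenobarbital acts mainly through the nuclear receptor CAR, and Diethylhexylphthalate through PPARα. A miRNA is a short RNA that pairs through its seed, bases 2 to 8 counted from its 5′ end, with messenger RNAs and lowers their stability or translation. The gene of miR-34a is a direct target of the transcription factor p53, which DNA damage activates.

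The sequences below are those of the miRNAs on which the results turn. The first 3 share 1 seed, miR-107 and miR-103 share another seed, and miR-497 and miR-195 share a further one. Whether the probes of the array separate such relatives was not tested. Sequences are from RefSeq (build GRCr8), with the seed in capitals.
miR-34a: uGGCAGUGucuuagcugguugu
miR-34c: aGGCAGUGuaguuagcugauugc
miR-449a: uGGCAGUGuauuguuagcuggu
miR-494: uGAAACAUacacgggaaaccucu
miR-188: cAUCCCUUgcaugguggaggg
miR-365: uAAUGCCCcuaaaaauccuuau
miR-10a-5p: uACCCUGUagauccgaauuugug
miR-505: gUCAACACuugcugguuucc
miR-96: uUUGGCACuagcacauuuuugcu
miR-182: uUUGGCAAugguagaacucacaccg
miR-107: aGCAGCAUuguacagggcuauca
miR-103: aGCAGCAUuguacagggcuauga
miR-139-5p: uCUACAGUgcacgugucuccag
miR-497: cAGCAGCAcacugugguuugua
miR-195: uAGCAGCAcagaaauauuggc

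Levels are log2 of the signal over the array's 75th percentile among probes detected on all arrays, so 0 is a bright probe and the floor of -5.49 is the dimmest value kept. Differences are 2-acetylaminofluorene minus the other group on the log2 scale. A difference was called where limma's Benjamini-Hochberg adjusted p was under 0.05 over the 129 miRNAs tested, and the verbs rose and fell are used of called differences only. The 75th percentile was 424 to 1051 signal units on the 2-acetylaminofluorene arrays and 540 to 1086 on the arrays of the 5 chemicals. Detected miRNAs numbered 106 to 141 per 2-acetylaminofluorene array and 90 to 138 per array of the 5 chemicals. No array was left out. 2-acetylaminofluorene replicate 3 weighed most on the calls: without it, 20 miRNAs were called against the mean of the 5 chemicals (7 higher and 13 lower), and 15 of 32 called miRNAs named below by rule lost their call.

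Against the mean of the 5 chemicals, 42 of 129 miRNAs (32.6%) were called, of which 16 rose (12.4%) and 26 fell (20.2%). The median difference over all 129 was -0.026. The split depended on the scaling: 5 rose and 59 fell with arrays scaled over all probes, which moved the median to -0.29. By the authors' own values 10 rose and 37 fell (median -0.16), and with quantile normalization 11 rose and 28 fell. A statement that a miRNA fell is therefore relative to the other miRNAs on the arrays, and in whole liver fewer cells of a type and less RNA per cell cannot be told apart. Normexp background correction left 7 calls (4 higher, 3 lower) and turned the sign of miR-139-5p, miR-378*, miR-335, miR-182 and miR-375. With slide as a block 24 were called (7 higher, 17 lower), and among the miRNAs named below those of miR-139-5p, miR-186, miR-26b, miR-92a, miR-466b, miR-500, miR-451, miR-214, miR-210, miR-342-3p and miR-335 missed the threshold.

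Taken singly, the 5 chemicals differed widely in how many miRNAs set 2-acetylaminofluorene apart from them. Against Chlorendic Acid 24 rose and 33 fell (44.2% called), against Diethylhexylphthalate 19 rose and 24 fell (33.3%), against Phenobarbital 8 rose (6.2%) and 12 fell (9.3%, 15.5% in all), and against Monuron 7 rose (5.43%) and 12 fell (9.3%, 14.7% in all). Against Methapyrilene HCl 2 rose and none fell (1.55%) by limma. At an unadjusted p under 0.05, 8 were higher and 14 lower against Methapyrilene HCl, and 4 rose and 11 fell with quantile normalization. Methapyrilene HCl had 4 arrays, as had 3 of the others, and the median SE of a difference was 0.164 for each of these 4. A difference that missed the threshold does not show equal levels. With arrays scaled over all probes the splits were 11 and 62 for Chlorendic Acid, 7 and 38 for Diethylhexylphthalate, 4 and 25 for Phenobarbital, 5 and 35 for Monuron and 2 and 13 for Methapyrilene HCl (rose and fell). These 5 comparisons and the one against their mean share the same 2-acetylaminofluorene arrays.

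Sorting the 42 called miRNAs by their pairwise calls gave a wide spread. Differences from each of the 5 chemicals were called for 2 miRNAs, miR-34a and miR-494 (1.55% of those tested), and both rose. This class depended on the scaling: with arrays scaled over all probes, and with quantile normalization, it held 6 miRNAs (2 higher, 4 lower), as miR-10a-5p, miR-126*, miR-151 and miR-505 joined miR-34a and miR-494. The authors' own values gave miR-126* beside those 2. It held only miR-494 among miRNAs detected on all arrays and only miR-34a with the compared groups fitted alone. From 4 of the 5 they were called for miR-188, which rose, and miR-365, which fell. From 3 chemicals they were called for 11 miRNAs (1 higher, 10 lower), and from 2 chemicals for 15 (8 higher, 7 lower). For 10 miRNAs (7.75% of those tested) only 1 chemical gave a pairwise call, and these are described below as resting on that chemical. That class was less stable than its count: of the 10, 1 stayed in it with scaling over all probes (miR-139-5p), 1 with quantile normalization (miR-139-5p), 1 with normexp (miR-497), 3 in the authors' own values and 3 with slide as a block. miR-126* and miR-151, 2 of the 10, were among those called against all 5 chemicals under scaling over all probes and quantile normalization. The last 2, let-7b* and miR-335, were called against the mean alone. All 5 differences had the same sign for 38 of the 42. A common sign is favoured here, since the 42 were picked by their difference from the mean of the same 5. All 5 differences also share the 2-acetylaminofluorene arrays.

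**Figure D1:**
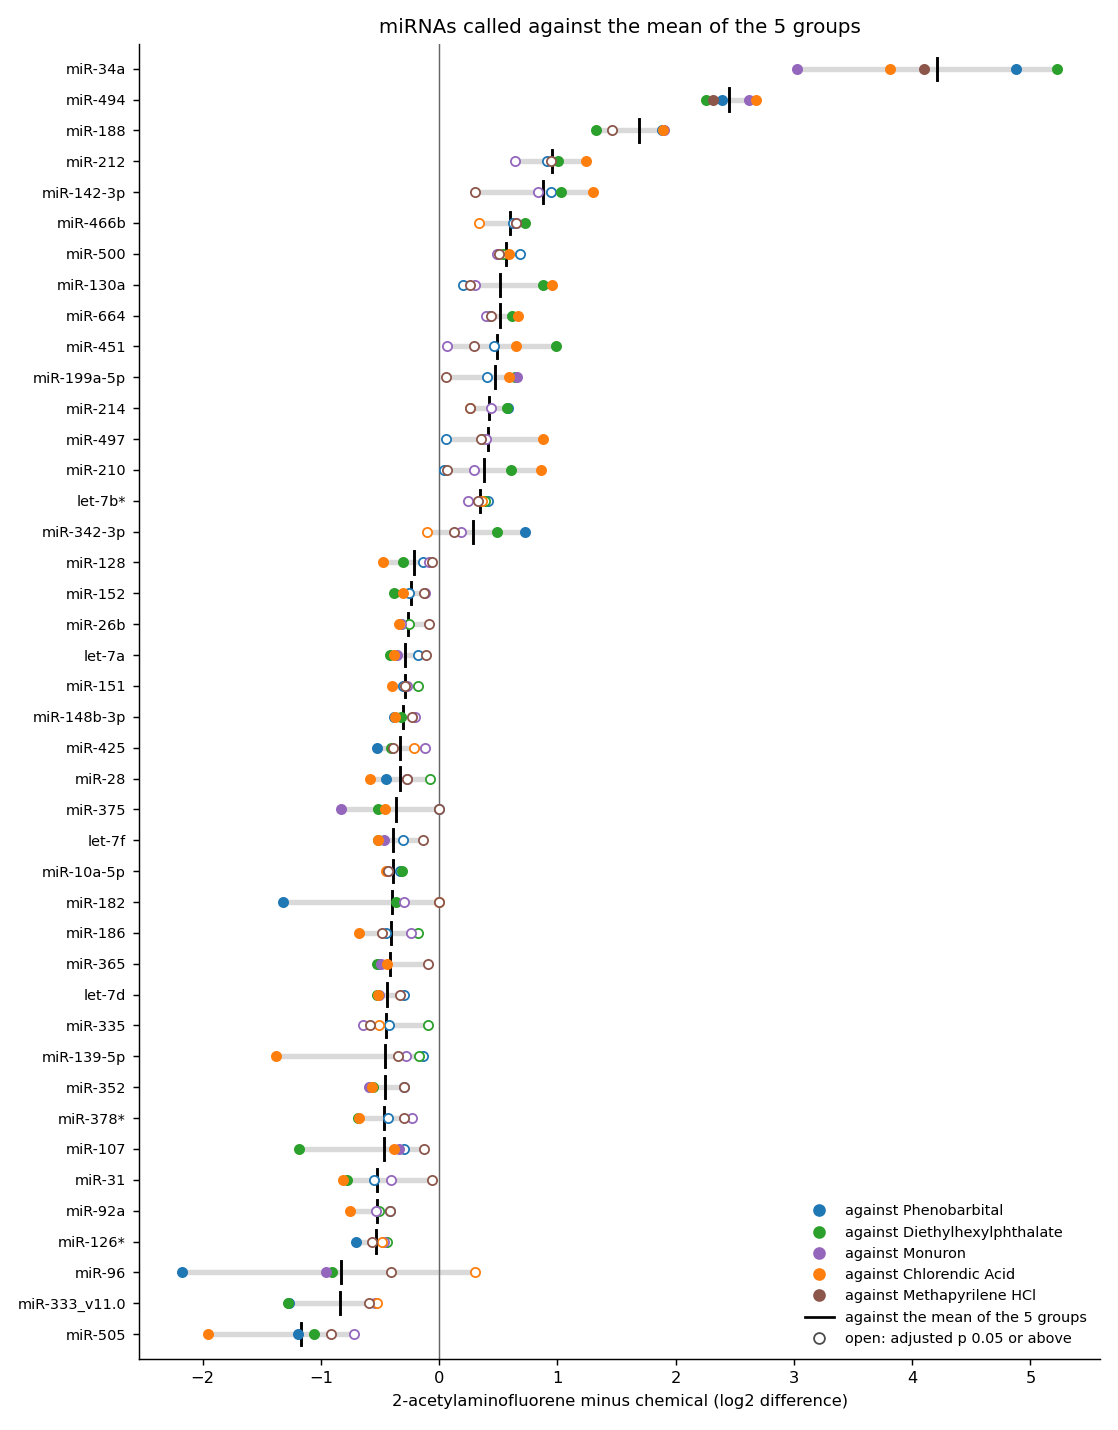
Difference of 2-acetylaminofluorene from each of the 5 chemicals for the 42 miRNAs called against their mean, on the log2 scale. Each symbol is 1 chemical, filled where the difference was called, and the black tick is the difference from the mean of the 5. Symbols of miR-34a lie farthest right, at 3.03 to 5.22.

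miR-34a, the p53 target named above, set 2-acetylaminofluorene apart most widely of the miRNAs tested. Its level was 0.22, -0.064, -0.22, 0.12 and 0.16 in the 5 rats fed 2-acetylaminofluorene. It was -2.95, -2.29, -3.95 and -2.76 with Monuron, -4.10, -3.92, -3.74 and -3.32 with Chlorendic Acid and -3.98, -4.13, -4.29 and -3.82 with Methapyrilene HCl. With Phenobarbital it was -4.49, -5.0 and -5.03, with Diethylhexylphthalate -5.01, -5.30, -4.90 and -5.49, and on control diet -5.26, -5.49, -4.53, -4.96 and -5.02. The 2-acetylaminofluorene values lay in a narrow band far above all others, and the nearest of the 19 arrays was a Monuron array. Against the mean of the 5 chemicals miR-34a rose by 4.21 (SE 0.16, 18.5-fold, limma adjusted p = 5.01e-21). The pairwise differences were 3.03 for Monuron (8.16-fold), 3.81 for Chlorendic Acid (14.1-fold), 4.10 for Methapyrilene HCl (17.1-fold), 4.88 for Phenobarbital (29.5-fold) and 5.22 for Diethylhexylphthalate (37.3-fold). The largest of these 5 limma adjusted p-values was 3.89e-13. The difference from control was 5.10 (34.2-fold).

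The 5 chemicals were not alike in miR-34a. Set against the mean of the other 4, a comparison added after the results were seen, Monuron was higher by 1.48 (SE 0.18, limma adjusted p = 3.46e-07) and Chlorendic Acid by 0.49 (adjusted p = 0.0483). Diethylhexylphthalate differed by -1.27 (adjusted p = 2.8e-06) and Phenobarbital by -0.84 (adjusted p = 0.00295). Which chemical is in the mean therefore changes the size of the 2-acetylaminofluorene difference, from 3.96 without Diethylhexylphthalate to 4.50 without Monuron. Low values with Phenobarbital, Diethylhexylphthalate and control diet lie at or near the floor, which limits how large these differences can appear.

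The mature miR-34a lies at chr5:165815971-165815992 on the plus strand (GRCr8), within the long noncoding RNA gene LOC103692514. A further probe for it on the array gave a difference of 4.14 from the mean of the 5. Its relatives of the same seed, miR-34b, miR-34c and miR-449a, were detected on 0 of 38 arrays. On the slides that held 2-acetylaminofluorene arrays beside arrays of the 5 chemicals, miR-34a was 5.27, 3.95 and 3.57 above the mean of the groups there (slides 3, 5 and 6, with 1, 2 and 2 arrays of 2-acetylaminofluorene).

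miR-494, a miRNA of the imprinted Dlk1-Dio3 region, was the other one called against each of the 5. It measured 2.33, 1.23, 3.03, 2.58 and 0.82 with 2-acetylaminofluorene. It measured -0.66, -0.037 and -0.48 with Phenobarbital, 0.68, -0.0051, -0.84 and -0.85 with Diethylhexylphthalate and -0.65, -0.089, -1.51 and -0.24 with Monuron. With Chlorendic Acid it measured -1.29, -0.33, -0.58 and -0.50, with Methapyrilene HCl -0.68, -0.35, -0.46 and 0.22, and on control diet 0.32, 0.80, -0.27, -0.38 and -0.47. No 2-acetylaminofluorene value overlapped the 19 others, although replicates 2 and 5 came close to the highest of them, and the spread was far wider than for miR-34a. Against the mean of the 5 chemicals miR-494 rose by 2.45 (SE 0.38, 5.47-fold, limma adjusted p = 1.05e-05). The pairwise differences ran from 2.26 (Diethylhexylphthalate) to 2.68 (Chlorendic Acid), with limma adjusted p-values of 0.000173 to 0.00384, and no chemical differed by a call from the mean of the other 4. Against control the difference was 2.0 (adjusted p = 0.0059).

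Rats fed Benzophenone at 1250 ppm, which is outside this comparison, had miR-494 levels of -1.03 at the lowest, 0.69 at the median and 2.80 at the highest, overlapping the 2-acetylaminofluorene values. The mature miRNA lies at chr6:134550163-134550185 on the plus strand (GRCr8), within the long noncoding RNA gene LOC102555254. The array held 32 other miRNAs within 50 kb of it. None of these was tested, and 1 of them was detected on any 2-acetylaminofluorene array, as 1 was on any of the 19. With only the compared groups in the fit, the difference from Methapyrilene HCl missed the threshold (limma adjusted p = 0.0623). A further probe for miR-494 gave 3.09 against the mean of the 5. Within slides 3, 5 and 6 the differences from the mean of the groups there were 2.60, 2.75 and 1.43.

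miR-188 lies in the chloride channel gene Clcn5 at chrX:17919595-17919615 (plus strand, GRCr8). Its levels were -3.64, -3.95, -2.38, -3.18 and -3.89 with 2-acetylaminofluorene. Among the 19 other arrays they ran from -5.49, the floor, to -3.95, which a Diethylhexylphthalate array reached. The lowest 2-acetylaminofluorene array came within rounding of that value, so the groups did not overlap but touched. Against the mean of the 5 chemicals miR-188 rose by 1.69 (SE 0.34, adjusted p = 0.000441). It was called against Monuron (1.90), Chlorendic Acid (1.89), Phenobarbital (1.88) and Diethylhexylphthalate (1.32), and not against Methapyrilene HCl (1.46, adjusted p = 0.0749). Without Methapyrilene HCl replicate 4 it passed against all 5. The Phenobarbital call was lost without Phenobarbital replicate 1 (adjusted p = 0.0524), and the Diethylhexylphthalate call, with a largest adjusted p of 0.107, when 2-acetylaminofluorene replicate 3 or replicate 2 or 3 of that chemical was left out. With slide as a block neither passed (1.44, adjusted p = 0.0784 for Phenobarbital; 1.02, adjusted p = 0.0794 for Diethylhexylphthalate), and the Diethylhexylphthalate call was also lost with scaling over all probes, quantile normalization, a lower floor, normexp and the authors' own values. Normexp ended the other 3 calls and that against the mean too. Against control its difference of 1.19 missed the threshold (adjusted p = 0.0648), and 2 control rats reached -3.35 and -4.18. miR-494 and miR-188 were both highest in 2-acetylaminofluorene replicate 3 and lowest in replicates 2 and 5.

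miR-365 was called lower against 4 of the 5. It measured -0.30, -0.41, -0.78, -0.36 and -0.40 with 2-acetylaminofluorene and -0.15, -0.72, -0.30 and -0.24 with Methapyrilene HCl. The Phenobarbital, Diethylhexylphthalate, Monuron and Chlorendic Acid arrays lay between -0.070 and 0.16, above all 2-acetylaminofluorene arrays, whereas those of Methapyrilene HCl overlapped them. Against the mean of the 5 the difference was -0.41 (adjusted p = 0.00216), against Methapyrilene HCl -0.098 (adjusted p = 0.757), and against control -0.24, not called. The Phenobarbital call was lost without Phenobarbital replicate 2 (adjusted p = 0.0766). With slide as a block the calls against Phenobarbital (-0.38, adjusted p = 0.175) and Chlorendic Acid (-0.33, adjusted p = 0.0925) were lost, and normexp ended those against Phenobarbital and Monuron. A further, dimmer probe for miR-365 gave -0.35 against Methapyrilene HCl and -0.55 to -0.46 against the other 4, so the small Methapyrilene HCl difference was seen with 1 of its 2 probes.

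**Figure D2:**
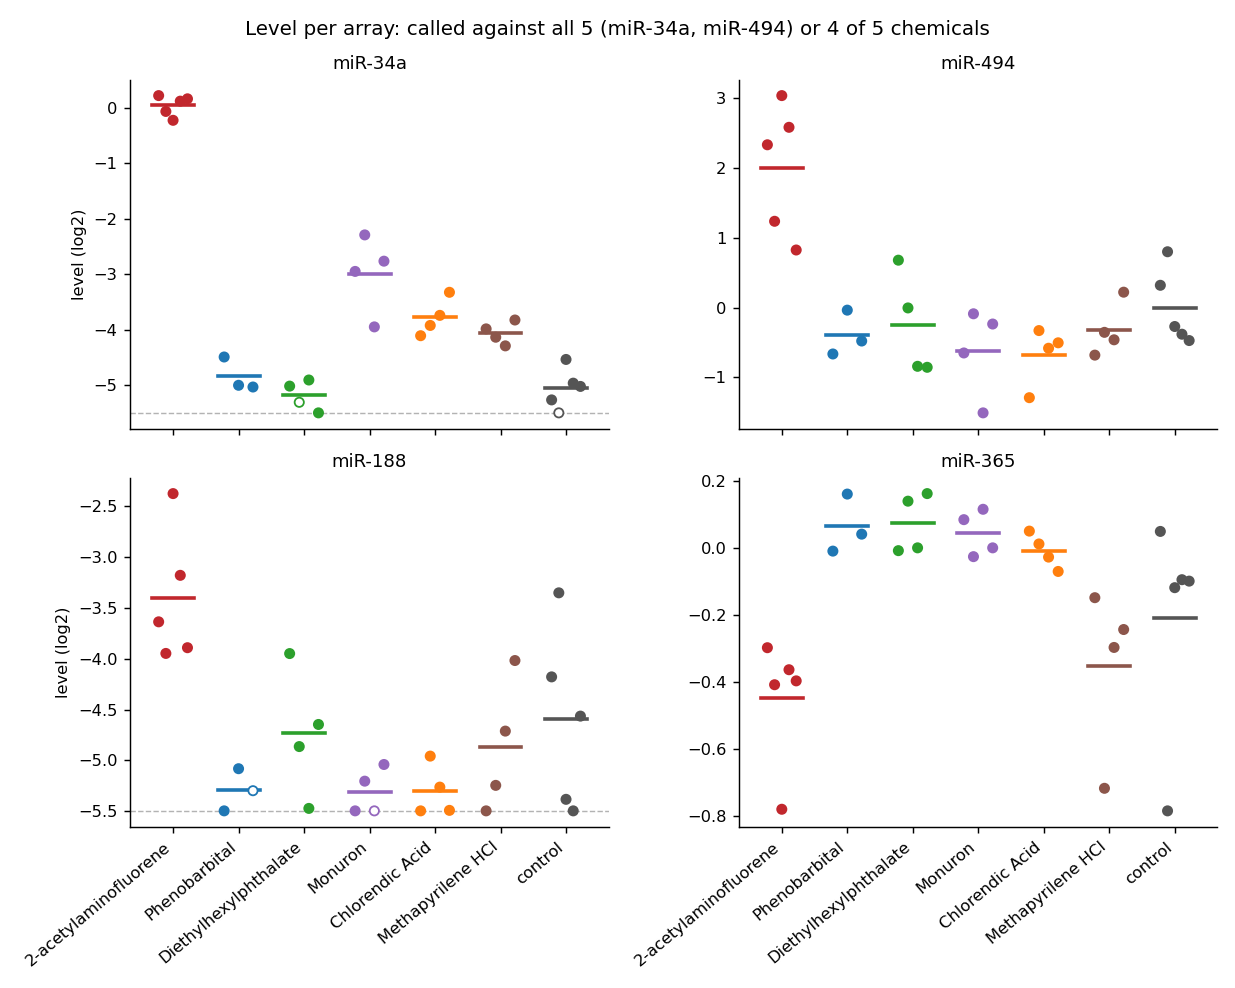
Levels (log2, relative to the array's 75th percentile) of miR-34a, miR-494, miR-188 and miR-365 on every array, with 2-acetylaminofluorene leftmost and control rightmost. Points are arrays, open where not detected, bars are group means and the dashed line is the floor of -5.49. For miR-34a the 2-acetylaminofluorene arrays lie at -0.22 to 0.22 and the next array at -2.29.

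Of the 129 miRNAs, 3 had every 2-acetylaminofluorene array above all 19 others (2.33%: miR-34a, miR-494 and miR-188) and 1 had every such array below them (0.775%: miR-10a-5p). miR-10a-5p, encoded in a Hox cluster, measured -2.23, -2.10, -2.52, -2.14 and -2.05 with 2-acetylaminofluorene, against -2.04 to -1.58 on the 19 arrays. The gap was small, since a Diethylhexylphthalate array at -2.04 came close to the highest 2-acetylaminofluorene array at -2.05. Its difference was -0.39 against the mean of the 5 (SE 0.092, adjusted p = 0.00216), and it was called against Diethylhexylphthalate (-0.32), Monuron (-0.43) and Chlorendic Acid (-0.45). It also fell against control (-0.45, adjusted p = 0.00987). The Phenobarbital difference of -0.33 and the Methapyrilene HCl difference of -0.44 were of like size and missed the threshold (adjusted p = 0.0867 and 0.0517).

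The other large decreases were unequal between chemicals. miR-505 measured -4.43, -4.86, -4.98, -4.19 and -4.59 with 2-acetylaminofluorene. Its levels were -2.61, -3.08, -2.05 and -2.87 with Chlorendic Acid and -3.63, -3.55 and -3.06 with Phenobarbital, and the 19 arrays ran from -4.33 to -2.05. All Chlorendic Acid and Phenobarbital arrays lay above those of 2-acetylaminofluorene, while the Monuron arrays overlapped them. miR-505 fell by 1.17 against the mean of the 5 (adjusted p = 7.46e-05) and was called against Chlorendic Acid (-1.96), Phenobarbital (-1.20) and Diethylhexylphthalate (-1.06). Chlorendic Acid itself was 0.98 above the mean of the other 4 (adjusted p = 0.00153), and the difference from control was -0.43, not called. A dimmer probe for miR-505 gave -0.63 against the mean of the 5, and its remaining probes were at the floor on all 24 arrays.

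miR-96 and miR-182 belong to the miR-183 cluster of epithelial and sensory cells and lie close together on chromosome 4. miR-96 measured -5.14, -5.02, -5.48, -5.14 and -4.89 with 2-acetylaminofluorene, -2.86, -3.02 and -3.01 with Phenobarbital and -5.49, -5.48, -5.49 and -5.28 with Chlorendic Acid. Phenobarbital arrays were the highest of the 24 and Chlorendic Acid arrays lay at or near the floor, where they partly overlapped those of 2-acetylaminofluorene. Its difference was -0.83 against the mean of the 5 (adjusted p = 3.12e-06), -2.17 against Phenobarbital, -0.95 against Monuron, -0.91 against Diethylhexylphthalate and 0.30 against Chlorendic Acid, the last not called. Phenobarbital stood 1.68 above the mean of the other 4, and Chlorendic Acid (-1.41) and Methapyrilene HCl (-0.52) differed from theirs (all called). Against control 2-acetylaminofluorene differed by -0.16, not called. miR-182 was detected on 0 of the 5 2-acetylaminofluorene arrays, and on all 3 Phenobarbital arrays it measured -4.17, -4.23 and -4.13. Among 2-acetylaminofluorene and the 5 chemicals, only the Phenobarbital group had it detected on every array. Testing required such a group in the study, which favours this difference. miR-96, detected on 3 of 5 2-acetylaminofluorene arrays, likewise entered the test only through other groups, which favours a lower value with 2-acetylaminofluorene. Phenobarbital was at least 2.23-fold brighter (adjusted p = 5.02e-10). Here the lower group has only a bound, the lowest signal detected on its arrays. With Diethylhexylphthalate miR-182 was detected on 2 of 4 arrays, so the size of that difference (-0.36, adjusted p = 0.0185) is set by the floor. Further probes for miR-182 were at the floor on all 24 arrays, and it lay at the floor with 2-acetylaminofluorene and control diet alike. The call of miR-182 against the mean was lost when Phenobarbital was left out of it. miR-183, the other cluster member, was detected on 0 of the 24 arrays.

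miR-107, hosted by the pantothenate kinase gene Pank1, measured -1.17, -1.13, -1.41, -0.98 and -1.01 with 2-acetylaminofluorene and -0.023, 0, 0.15 and 0.044 with Diethylhexylphthalate. Methapyrilene HCl arrays, at -1.11 to -0.93, overlapped those of 2-acetylaminofluorene. All Phenobarbital, Monuron and Chlorendic Acid arrays lay above them, at -0.90 to -0.61, and those of Diethylhexylphthalate were higher than all other arrays of the 24. Its difference was -0.47 against the mean of the 5 (adjusted p = 7.46e-05), -1.18 against Diethylhexylphthalate, -0.38 against Chlorendic Acid and -0.34 against Monuron, all called. Diethylhexylphthalate was 0.90 above the mean of the other 4 (adjusted p = 5.77e-09), and Methapyrilene HCl differed by -0.42 from its other 4 (adjusted p = 0.00327). miR-103 of the same seed differs from miR-107 in 1 base (C22G, counted from the 5′ end with the base of miR-107 first). The difference of miR-103 from the mean of the 5 was -0.15 (adjusted p = 0.107). Pairwise, miR-103 was called against Diethylhexylphthalate (-0.26, adjusted p = 0.0302) and Monuron (-0.28, adjusted p = 0.0324), and not against the other chemicals.

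**Figure D3:**
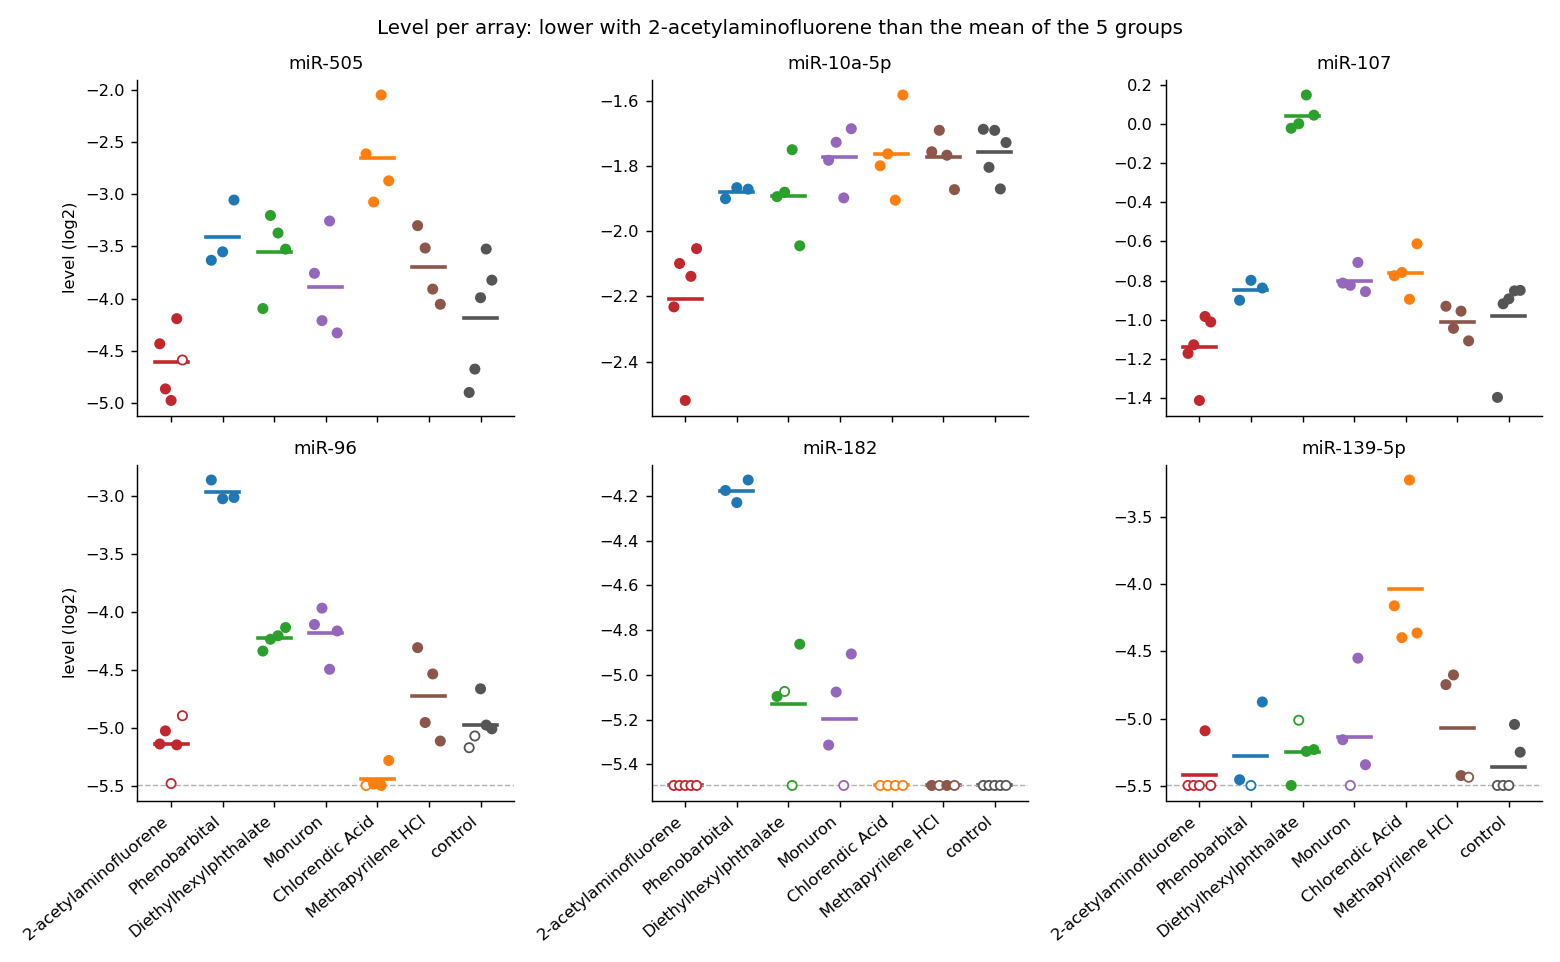
Levels (log2, relative to the array's 75th percentile) of miR-505, miR-10a-5p, miR-107, miR-96, miR-182 and miR-139-5p on every array, drawn with 2-acetylaminofluorene leftmost and control rightmost. Points are arrays, open where not detected, bars are group means and the dashed line is the floor of -5.49. miR-10a-5p is the member whose 2-acetylaminofluorene arrays lie below all 19, whereas miR-107 with Diethylhexylphthalate and miR-96 with Phenobarbital stand apart from the other chemicals.

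Among the 10 miRNAs with a pairwise call against 1 chemical, 7 rested on Chlorendic Acid, 2 on Diethylhexylphthalate and 1 on Phenobarbital. A pairwise call against 1 chemical does not by itself show that this chemical differs from the rest, so each was also set against the mean of the other 4. Without its chemical, the 2-acetylaminofluorene call was lost for miR-139-5p, miR-186, miR-26b, miR-333_v11.0 and miR-497, and was kept for miR-126*, miR-151, miR-466b, miR-500 and miR-92a. For miR-26b the call was lost as well without Phenobarbital (adjusted p = 0.0633), Diethylhexylphthalate (0.0505) or Monuron (0.0693), and for miR-333_v11.0 without Phenobarbital (0.0813), so the loss was not particular to the named chemical. Leaving out 1 array ended the call of miR-26b in 14 of 24 cases (adjusted p up to 0.369) and that of miR-333_v11.0 in 15 (adjusted p up to 0.24). The chemical itself was called different from the mean of the other 4 for 2 of the 10 miRNAs, miR-139-5p and miR-497, both with Chlorendic Acid. Over all 129 miRNAs Chlorendic Acid was called different from the other 4 for 28 (21.7%), Phenobarbital for 17 (13.2%), Diethylhexylphthalate for 10 (7.75%), and Monuron and Methapyrilene HCl for 5 each (3.88%).

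miR-139-5p, hosted by the phosphodiesterase gene Pde2a, had the widest gap of these between its named chemical and the mean of the other 4. It was detected on 1 of 5 2-acetylaminofluorene arrays, at -5.09. It could therefore enter the test only through another group, which favours a lower value with 2-acetylaminofluorene. With Chlorendic Acid it measured -4.16, -4.40, -3.23 and -4.36, and on the other 15 arrays it ran from the floor to -4.55. The Chlorendic Acid arrays lay above all others, and the remaining groups overlapped 2-acetylaminofluorene at or near the floor. The difference was -0.46 against the mean of the 5 (adjusted p = 0.017), -1.38 against Chlorendic Acid (adjusted p = 3.41e-06) and -0.23 against the mean of the other 4 (adjusted p = 0.285). Chlorendic Acid was 1.14 above the other 4 (adjusted p = 6.39e-06). A further, dimmer probe for miR-139-5p gave -0.023 against the mean of the 5, and without 2-acetylaminofluorene replicate 3 the call against the mean was lost (adjusted p = 0.0623).

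miR-497 ran the other way. It measured -1.59, -1.53, -1.69, -1.54 and -1.46 with 2-acetylaminofluorene, -2.57, -2.40, -2.65 and -2.12 with Chlorendic Acid and -1.57, -1.56 and -1.72 with Phenobarbital. Chlorendic Acid arrays lay below those of 2-acetylaminofluorene without overlap, and Phenobarbital arrays overlapped them. The difference was 0.41 against the mean of the 5 (adjusted p = 0.0107), 0.87 against Chlorendic Acid (adjusted p = 0.000111) and 0.29 against the other 4 (adjusted p = 0.0681). Chlorendic Acid differed by -0.58 from the other 4 (adjusted p = 0.00112). Phenobarbital, set against its own other 4, differed the opposite way by 0.44 (adjusted p = 0.0416). Of the relatives with its seed, miR-195 differed by 0.018, miR-16 by 0.021, miR-15b by 0.14 and miR-322 by -0.13 from the mean of the 5, none of them called. Pairwise, miR-15b was called against Phenobarbital (0.49, adjusted p = 0.00928) and Diethylhexylphthalate (0.42, adjusted p = 0.00916), and the other relatives against no chemical.

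The other 8 had no chemical that stood apart by a call. miR-500 rose by 0.56 against the mean (adjusted p = 0.017), and its differences from the 5 chemicals were all between 0.49 and 0.68, although only that from Chlorendic Acid (0.59) was called. Its levels were -4.17, -3.63, -3.71, -4.45 and -2.93 with 2-acetylaminofluorene, and leaving out replicate 2, 3 or 5 of that group ended the call (adjusted p up to 0.152). miR-500 lies 11062 bases from miR-188 in the same host gene, Clcn5. miR-126*, the passenger strand of the endothelial miR-126, differed by -0.53 from the mean, with differences of -0.70 from Phenobarbital (called) and -0.56 to -0.44 from the others. miR-92a, from a polycistron known for promoting cell growth, differed by -0.53, with -0.75 from Chlorendic Acid (called) and -0.54 to -0.41 from the others. For miR-151 the differences were -0.40 from Chlorendic Acid and -0.31 to -0.18 from the others, for miR-186 -0.68 and -0.49 to -0.18, and for miR-26b -0.34 and -0.32 to -0.082. For miR-333_v11.0 they were -1.28 from Diethylhexylphthalate and -1.27 to -0.53 from the others, the farther end being Phenobarbital with an SE that left it uncalled. For miR-466b, at the floor on all Diethylhexylphthalate arrays, 2-acetylaminofluorene was at least 1.48-fold brighter (adjusted p = 0.0463), and the other differences were 0.34 to 0.65. Detection of miR-466b on all 5 2-acetylaminofluorene arrays was enough to admit it to the test, which can favour a higher value there.

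**Figure D4:**
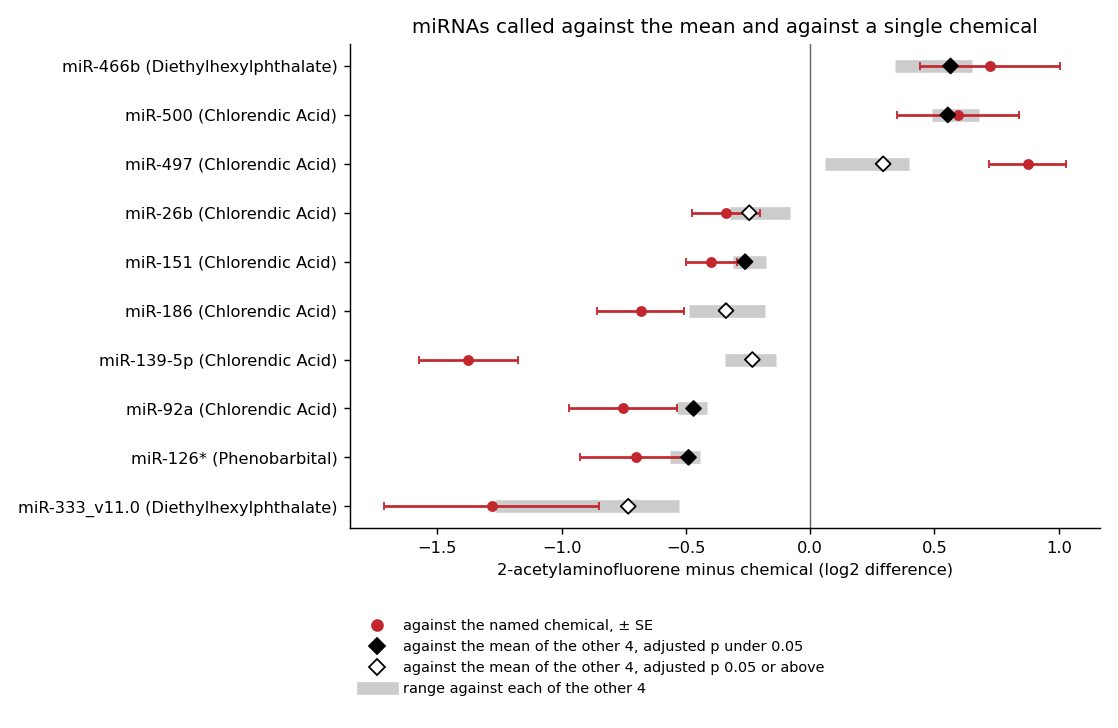
The 10 miRNAs with a pairwise call against 1 chemical, on the log2 scale as 2-acetylaminofluorene minus the other group. Red points with bars (1 SE) are the named chemical, diamonds the mean of the other 4, filled where called, and grey lines the range over the other 4. miR-139-5p has the named chemical (Chlorendic Acid, -1.38) farthest from the mean of the other 4 (-0.23).

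Leaving each chemical out of the mean in turn gave 42 calls without Phenobarbital, 37 without Diethylhexylphthalate, 42 without Monuron, 33 without Chlorendic Acid and 49 without Methapyrilene HCl. Of the 42 calls, 26 were made with each of the 5 left out, and these include miR-34a, miR-494, miR-188, miR-505, miR-96, miR-107, miR-365 and miR-10a-5p. Calls lost only without Chlorendic Acid were those of miR-128, miR-130a, miR-139-5p, miR-186, miR-28 and miR-497. The call of miR-152 was lost only without Diethylhexylphthalate.

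Some miRNAs were called in opposite directions against different chemicals, and none of these was called against the mean. These were 4: miR-200a, miR-200b and miR-429, a cluster of epithelial miRNAs known for holding back the transcription factors ZEB1 and ZEB2, and the lymphocyte miRNA miR-150, which was picked out after its values were seen. miR-200a measured -4.42, -3.64, -3.99, -3.63 and -4.23 with 2-acetylaminofluorene, -2.77, -3.02 and -3.28 with Phenobarbital and -5.13, -4.79, -5.49 and -4.57 with Monuron. The 2-acetylaminofluorene arrays lay between these groups and overlapped neither. The differences were -0.96 against Phenobarbital (adjusted p = 0.00521) and 1.01 against Monuron (adjusted p = 0.00141), with 0.19 against the mean (adjusted p = 0.397).

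miR-200b measured -3.87, -3.35, -3.51, -3.15 and -3.76 with 2-acetylaminofluorene, -2.37, -2.34 and -2.59 with Phenobarbital and -4.88, -4.21, -4.70 and -3.66 with Monuron. The 2-acetylaminofluorene arrays lay below all Phenobarbital arrays and overlapped 1 Monuron array. It differed by -1.10 from Phenobarbital and by 0.83 from Monuron, both called, and by 0.058 from the mean. miR-429, undetected on the Monuron and control arrays, was detected on 3 of 5 2-acetylaminofluorene arrays, and differed by -0.46 from Phenobarbital and 0.49 from Diethylhexylphthalate, both called. Its difference from Monuron was 0.50 (adjusted p = 0.0122), a size set by the floor, since neither group had it detected on all arrays. The size of the Diethylhexylphthalate difference is also set by the floor, with replicate 1 of that chemical at -5.46 and its other arrays at -5.49. miR-429 could enter the test only through a group other than 2-acetylaminofluorene, which favours a lower value than in that group. Against control the differences of miR-200a and miR-200b were 1.12 and 1.14 (adjusted p = 0.00028 and 0.00028). miR-150 differed by 0.40 from Phenobarbital and -0.35 from Chlorendic Acid, both called.

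**Figure D5:**
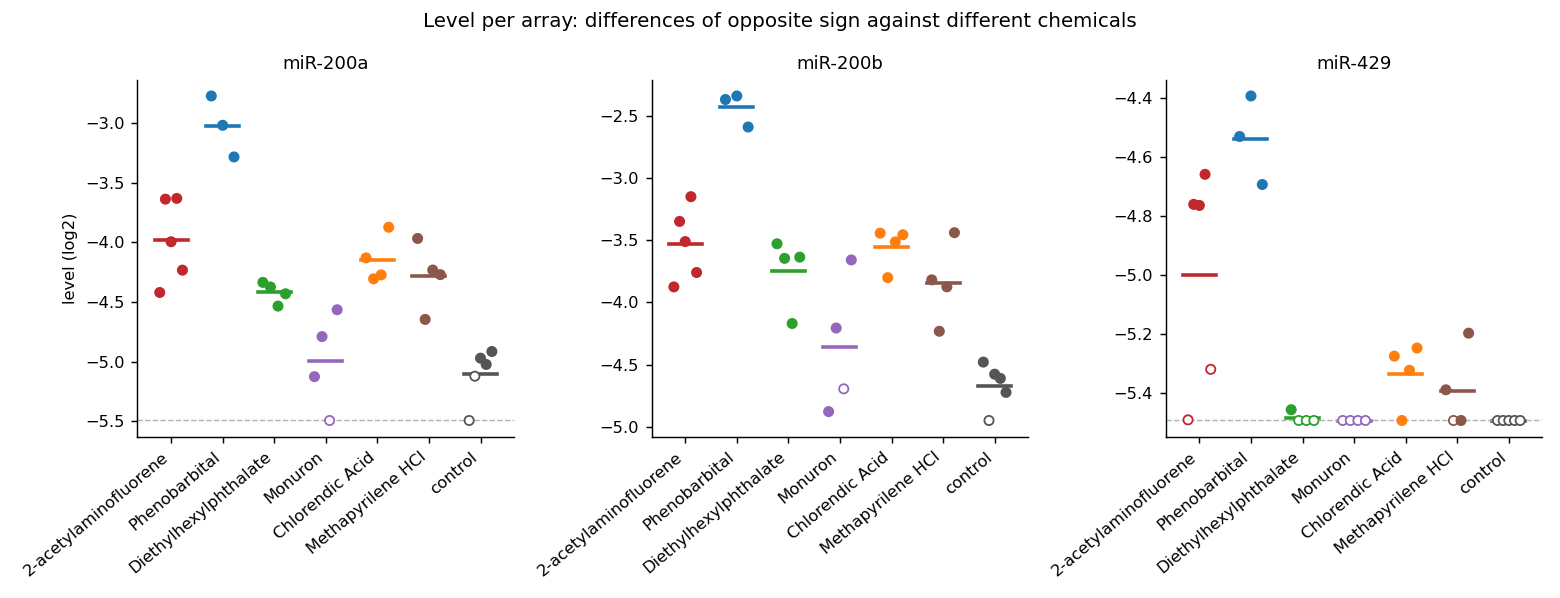
Levels (log2, relative to the array's 75th percentile) of miR-200a, miR-200b and miR-429 on every array, with 2-acetylaminofluorene leftmost and control rightmost. Points are arrays, open where not detected, bars are group means and the dashed line is the floor of -5.49. Phenobarbital arrays of miR-200a lie at -3.28 to -2.77, above 2-acetylaminofluorene, and Monuron arrays below it.

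In all, 76 of 129 miRNAs were called against at least 1 of the 5 chemicals. Of these, 24 were called against exactly 1 chemical and not against the mean, and of those 24 18 were called against Chlorendic Acid, 5 against Diethylhexylphthalate and 1 against Phenobarbital. Among them miR-324-3p differed by 2.18 from Chlorendic Acid and by 0.83 from the mean (adjusted p = 0.135). miR-221, which targets the cell cycle inhibitor p27, differed by -1.51 from Diethylhexylphthalate and -0.51 from Chlorendic Acid, both called, and by -0.34 from the mean (adjusted p = 0.0535). Its levels were -4.10, -4.05, -4.48, -4.34 and -4.15 with 2-acetylaminofluorene and -2.84, -2.63, -2.69 and -2.68 with Diethylhexylphthalate, which stood apart without overlap.

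Against control diet 12 miRNAs rose (9.3%) and 3 fell (11.6% called in all). Arrays scaled over all probes gave 5 and 48, quantile normalization 8 and 9, and the authors' own values 6 and 27. Of the 42 miRNAs called against the mean of the 5 chemicals, 7 were also called in that direction against control: miR-34a, miR-494, miR-500, miR-199a-5p, miR-214, miR-342-3p and miR-10a-5p. The other 35 were not called in that direction against control, and both comparisons use the same 2-acetylaminofluorene arrays. miR-505, miR-96, miR-107 and miR-139-5p were among these, with differences from control of -0.43, -0.16, -0.16 and -0.059.

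Among miRNAs that p53 is known to regulate, 5 of 8 on the array were tested against the mean of the 5. miR-34a rose, miR-107 fell, and the median was -0.048, beside -0.026 over all 129. The others had 0.41 (miR-145), -0.12 (miR-192) and -0.048 (miR-194), none called, and miR-215 was not detected. The miR-183 cluster had both tested members lower (median -0.61), beside 20.2% lower over all 129. Both miR-96 and miR-182 entered the test only through groups other than 2-acetylaminofluorene, which favours lower values. The let-7 family, tumour suppressor miRNAs, had 3 of 8 lower and none higher (median -0.19), beside the same 20.2%. The let-7 count was 7 of 8 with scaling over all probes, 1 with quantile normalization or slide as a block and 4 in the authors' own values. let-7d fell most of these (-0.44, adjusted p = 0.00133), and let-7a and let-7f differed by -0.29 and -0.39. miR-92a was the only call among 8 members of the polycistron it belongs to and of that polycistron's paralogs (median 0.0018). No member was called among 3 of the miR-200 family (median 0.19), 5 of miR-30 (0.036), 3 of miR-29 (-0.16), 1 of miR-181 (0.17), 5 of miR-23-24-27 (-0.14) and 2 of the proliferation list (-0.088), in which miR-21 differed by 0.17.

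Markers of cell types were set beside these results. None of 5 hepatocyte markers was called (median -0.0075), among them miR-122, the abundant hepatocyte miRNA, at -0.0075. The liver label was checked with miR-122, whose level was 6.10 to 6.32 with 2-acetylaminofluorene and 6.0 to 6.57 on the 19 arrays. Of 5 stellate or mesenchymal markers miR-199a-5p (0.47) and miR-214 (0.42) rose, beside 12.4% higher over all 129, and the list's median was 0.41. None of the 5 was called with scaling over all probes, normexp or slide as a block, and 1 with quantile normalization; the miR-214 difference was 0.17 with scaling over all probes (adjusted p = 0.391). The summed level of the 5 was -0.35 to 0.39 with 2-acetylaminofluorene, -0.55 to 0.18 with the 5 chemicals and -0.33 to -0.11 on control diet. Of 4 leukocyte markers tested miR-142-3p rose (0.88), and miR-223 at 0.20, miR-150 at 0.0093 and miR-146a at -0.20 were not called (median 0.10). The summed level over 5 was -0.45 to -0.11 with 2-acetylaminofluorene, -0.62 to 0.28 with the 5 chemicals and -1.01 to -0.27 on control diet.

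The red cell marker miR-451 rose (0.49, adjusted p = 0.0399). Its call was lost with scaling over all probes (0.20, adjusted p = 0.405), normexp, the mean of probes, slide as a block and the authors' own values (0.31, adjusted p = 0.141), without Diethylhexylphthalate or Chlorendic Acid in the mean, and in 6 of 24 cases when 1 array was left out (adjusted p up to 0.204). The summed level over 2 red cell markers was 0.038 to 0.94 with 2-acetylaminofluorene, -0.97 to 0.58 with the 5 chemicals and -0.26 to 0.20 on control diet. The endothelial miR-126 differed by -0.18, not called. Of 5 cholangiocyte or epithelial markers tested miR-375 (-0.36) and miR-31 (-0.52) fell, beside 20.2% lower over all 129, whereas miR-200a, miR-200b and miR-429 had 0.19, 0.058 and 0.25, none called (list median 0.058). miR-141 of that list was detected on no array of the 24. The summed level of the 7 was -1.0 to -0.62 with 2-acetylaminofluorene, -1.06 to -0.13 with the 5 chemicals and -1.62 to -0.58 on control diet. The part of the called markers in any of the results was not tested.

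The higher miRNAs not yet described were modest. miR-212, of the CREB-responsive miR-212/132 locus, measured -4.27, -3.78, -3.58, -5.17 and -3.73 with 2-acetylaminofluorene, with a difference of 0.95 (adjusted p = 0.00819). It was called against Chlorendic Acid (1.24) and Diethylhexylphthalate (1.01), a further probe for it was at the floor on all 24 arrays, and miR-132 of the same seed was detected on 0 of 38 arrays. miR-130a rose by 0.52, miR-210, the hypoxia miRNA, by 0.38, and miR-342-3p by 0.28, each with 2 pairwise calls. The miR-210 call was lost in 12 of 24 cases when 1 array was left out (adjusted p up to 0.152) and with scaling over all probes, normexp, quantile normalization, the mean of probes, a lower floor, no filter, slide as a block, the replicate block and the authors' own values, and its further probe gave 0.080. The sign of miR-342-3p turned when arrays were scaled over all probes (-0.0024). Lower were miR-378* (-0.47), miR-352 (-0.46), miR-335 (-0.45) and miR-375. The miR-335 call was lost in 13 of 24 cases when 1 array was left out (adjusted p up to 0.108). Its mean of -5.36 with 2-acetylaminofluorene lay near the floor, and its further, dimmer probe gave -0.12. miR-375 was detected on 1 of 5 2-acetylaminofluorene arrays, and all 5 lay at or just above the floor, as did those of Phenobarbital and Methapyrilene HCl. It was called against Monuron, Diethylhexylphthalate and Chlorendic Acid, with differences whose size is set by the floor. It could enter the test only through a group other than 2-acetylaminofluorene, which favours such differences. A further probe for miR-375 was at the floor on all 24 arrays.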

How the data were processed

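Liver RNA of 38 rats was hybridized by the authors to Agilent 1-colour miRNA arrays (Cy3), 1 per animal, per the labels. Per the file headers, the deposited scanner output, linear spot intensity, was made with Feature Extraction 10.5.1.1. An authors' table of log2 values for 167 of the array's 350 miRNAs, also deposited, was an alternative. Processed signals were averaged per probe (938 probes), divided by each array's 75th percentile (taken over 137 probes that all arrays detected), floored at the 5th percentile of detected values (log2 -5.49, 16.7 signal units on the median array) and put on the log2 scale. The brightest probe stands for each miRNA. A miRNA was tested if all arrays of some group detected it, and these 129 were fitted over all 38 arrays with limma 3.58.1 (R 4.3.3, a mean per group, Benjamini-Hochberg adjusted p under 0.05, two-sided), and the pipeline was tested on simulated data. Figures were made with matplotlib 3.10.9.

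miRNAs are named where they differed from each of the 5, rested on 1 chemical, or were among the largest differences against the mean or a chemical. Others are members of lists, or were named after their values were seen. Members and lists were chosen with earlier results of these data known. Alternatives were other scalings, background corrections and filters, blocks for slide and replicate number, each chemical left out, and each array left out.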

Additional observations from a re-analysis of the deposited data

Results flagged for a closer look

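Among 189 sets of 4 or 5 arrays examined for the named miRNAs, 17 held an array far from the rest of its group (levels are log2). Chance gives about 1 in 20 for values without ties. In several of the 17 all other arrays were tied at the floor, where any value off it is flagged, so the 2 rates cannot be compared. In rats fed 2-acetylaminofluorene these were replicate 4 for miR-139-5p (-5.09, the others at the floor) and for miR-324-3p (-2.99), replicate 3 for miR-151 (-2.66) and for miR-365 (-0.78), and replicate 1 for miR-375 (-5.49, barely off the floor). With Chlorendic Acid they were replicate 4 for miR-126* (-3.28), miR-210 (-5.28), miR-96 (-5.28), miR-375 (-4.70) and miR-212 (-4.92), and replicate 3 for miR-500 (-4.62) and miR-122 (6.57). With Diethylhexylphthalate they were replicate 3 for miR-210 (-4.72) and replicate 1 for miR-429 (-5.46). With Monuron they were replicate 2 for miR-466b (-5.23) and replicate 3 for miR-378* (-4.28), and with Methapyrilene HCl replicate 1 for miR-466b (-5.19). Chlorendic Acid replicate 4 accounted for 5 of the 17, and for miR-210 and miR-212 the other arrays of that group were all at the floor.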

How the results depend on the processing

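Precision was limited by the 3 to 5 arrays per group and, for dim miRNAs, by the background. The arrays lie on 6 slides, 2-acetylaminofluorene on 3 of them. miR-34a and miR-494 were both called against each of the 5 under every alternative run except 2: miR-34a was not detected on all arrays, so 1 miRNA was left when that was required, and 1 when only the compared groups were fitted. With the number of detected miRNAs as a covariate all 32 named calls held.

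Counts against the mean (42) were 64 with scaling over all probes, 7 with normexp, 19 of 80 when detected on all arrays and 24 with slide as a block, which weakened 11 of the 32 named calls. Counts against Phenobarbital (20) were 2 with normexp, 3 when detected on all arrays, 6 with slide as a block and 13 with the replicate block. Against Diethylhexylphthalate (43) they were 10 with normexp, 20 when detected on all arrays and 26 with slide as a block. Against Monuron (19) they were 40 with scaling over all probes, 2 with normexp, 34 in the authors' table, 9 when detected on all arrays and 7 with only the compared groups. Against Chlorendic Acid (57) they were 16 with normexp, 33 with slide as a block and 30 with only the compared groups. Against Methapyrilene HCl (2) they were 15 with scaling over all probes and with quantile normalization, 4 with the mean of probes and in the authors' table, and 1 with only the compared groups. Against control (15) they were 53 with scaling over all probes, 3 with normexp, 33 in the authors' table, 6 when detected on all arrays, 5 with slide as a block and 8 with only the compared groups. Differences from each of the 5 (2) numbered 6 with scaling over all probes and with quantile normalization. miRNAs resting on 1 chemical (10) numbered 2 with normexp, 3 with quantile normalization, 5 in the authors' table and 6 when detected on all arrays.

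Normexp turned the sign of miR-139-5p (0.015), miR-378* (0.016), miR-335 (0.050), miR-182 (0.081) and miR-375 (0.12), and scaling over all probes that of miR-342-3p (-0.0024); the cause was not tested. Leaving out each array in turn gave 20 to 44 calls against the mean, 8 to 24 against Phenobarbital, 31 to 45 against Diethylhexylphthalate, 12 to 27 against Monuron, 35 to 55 against Chlorendic Acid, 2 to 8 against Methapyrilene HCl, 10 to 17 against control, 2 to 3 from each of the 5 and 5 to 12 resting on 1 chemical. The lowest counts came without 2-acetylaminofluorene replicate 3 against the mean (20) and Monuron (12), without Phenobarbital replicate 1 against Phenobarbital (8; 11 without its replicate 2, 13 without 2-acetylaminofluorene replicate 3) and without Chlorendic Acid replicate 3 against Chlorendic Acid (35). Against Methapyrilene HCl the count was 8 without its replicate 4, and 4 and 5 without 2-acetylaminofluorene replicates 2 and 4. miRNAs resting on 1 chemical numbered 5 without 2-acetylaminofluorene replicate 3 or Monuron replicate 1, and 6 without 2-acetylaminofluorene replicate 4 or Diethylhexylphthalate replicate 1.

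Arrays sharing a replicate number did not deviate together: over 19 such pairs the median correlation was -0.086, and 4 exceeded 0.1. With the replicate block the count against the mean was 38 (15 higher, 23 lower).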
